A study of Mus musculus with 745 samples.

Results

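Glucose enters brain endothelial cells through the transporter encoded by Slc2a1 (GLUT1) and is broken down by the enzymes of glycolysis, which end in pyruvate and, through lactate dehydrogenase, lactate. The members described here are 8 genes of that route, chosen by name: Slc2a1, the hexokinase Hk1, the glucose phosphate isomerase Gpi1, the aldolase Aldoa, the phosphoglycerate kinase Pgk1, the pyruvate kinase Pkm, and the lactate dehydrogenase subunits Ldha and Ldhb. All 8 were among the 20607 gene symbols of the count table. They were described by how many cells held a count, their level per cell, how they varied together, and how even they were along the arterial, capillary and venous segments of the vascular tree.

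The samples were single brain endothelial cells of mice aged 3 months, isolated by flow cytometric sorting after enzymatic dissociation, with 1 cell per sample and 745 cells in all. By their titles the cells fell into 3 sets, Young1 (225 cells), Young2 (258) and AY_Y3 (262). All sets shared that age, and no treatment or genotype separated them in the labels, which do not define a set (an animal, several pooled animals or a plate). The sources used here give neither the markers of the sorting gate nor the strain. Median counts per cell were 757949 in Young1, 713031 in Young2 and 411397 in AY_Y3. Over all cells they ran from 52819 to 2421434. The counts carry no molecular identifiers, so reads are not independent molecules, and the intervals for shares of cells below cover counting error only.

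GLUT1 is a facilitative carrier that is dense in the endothelium of the blood-brain barrier and carries glucose down its gradient from blood to brain. Endothelial cells are known to draw much of their ATP from glycolysis. Lactate dehydrogenase is a tetramer of subunits encoded by Ldha and Ldhb, which differ in how readily they are inhibited by pyruvate.

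Of the 745 cells, 694 were kept as endothelial (214 of Young1, 236 of Young2 and 244 of AY_Y3). Their defining markers were present: Cldn5, a tight junction gene, had a count in 99.1% of them, and Pecam1, an adhesion gene of endothelium, in 88.6%. A cluster of 27 wells with 10 raised pericyte markers, and a cluster of 24 wells led by oligodendrocyte genes and with 4 raised astrocyte markers, were left out of the results that follow.

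Among the 694 endothelial cells Slc2a1 was the most widely counted member, with a count in 98.1% of cells (681 of 694, exact 95% binomial interval 96.8 to 99). By set the share was 95.8% in Young1, 99.2% in Young2 and 99.2% in AY_Y3. Its level, as counts per 1000000 counts (CPM) in the sum of a set's cells, was 8384 in Young1, 9019 in Young2 and 11218 in AY_Y3, which gave 9540 ± 1487 (SD, n = 3 sets). Young1 was the lowest and AY_Y3, the set with the fewest counts per cell, the highest. Slc2a1 ranked at position 4 by mean CPM among the 876 genes that were counted in 50% or more of the endothelial cells of each set.

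Single cells spread less around that level than was common among those genes. The coefficient of variation of Slc2a1 over cells, the SD as a percentage of the mean CPM, was 54.4% in Young1, 53.9% in Young2 and 52.6% in AY_Y3. Their mean, 53.6%, ranked at position 16 from the lowest among the 876 genes, whose median was 124%. Cldn5 stood at 51.7% and Actb, the cytoplasmic actin, at 51.3%, at positions 15 and 9 by mean CPM. The 876 genes were not matched to Slc2a1 in level, on which this coefficient can depend. The interquartile range of Slc2a1 ran from 5253 to 11424 CPM in Young1, from 5406 to 11397 in Young2 and from 7087 to 15050 in AY_Y3, so the sets overlapped widely. The other members among those 876 genes varied more: Ldha had a mean coefficient of variation of 86.8%, Aldoa of 95.7% and Pkm of 101%. They were also lower by mean CPM, at positions 56, 125 and 139.

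**Figure D1:**
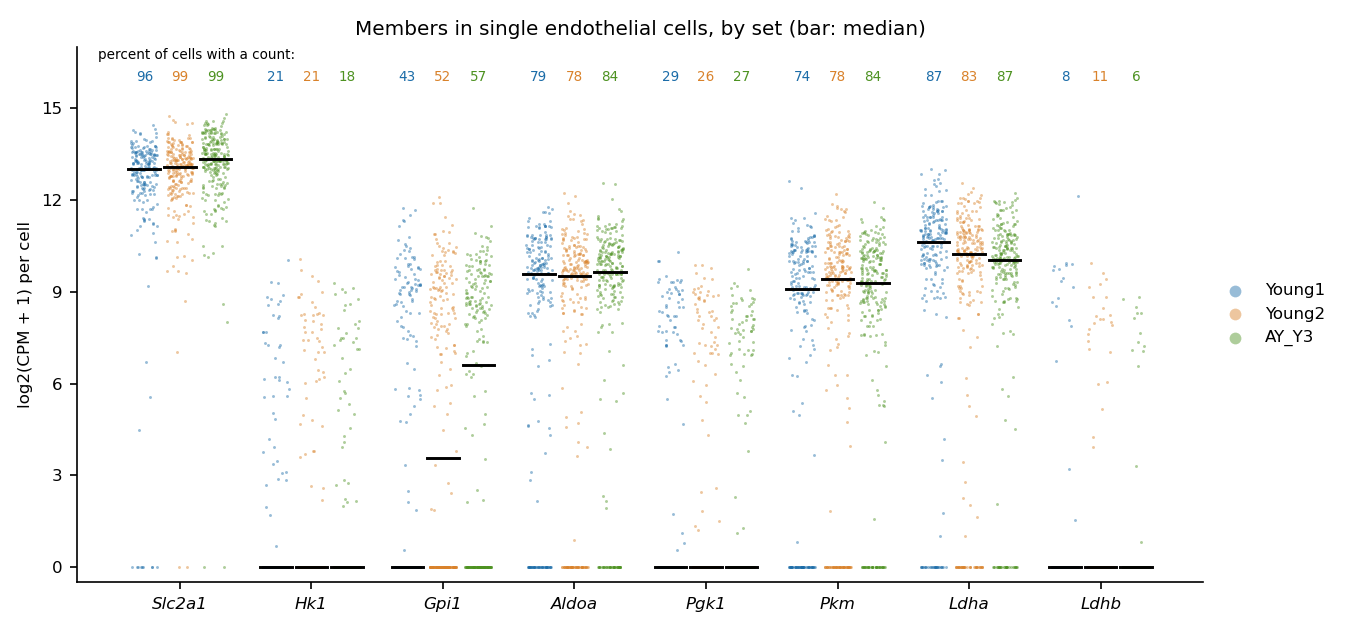
Level of the 8 members in each of the 694 endothelial cells, as log2(CPM + 1), by set. Each point is a cell, the black bar is the median, and the digits above are the percentage of cells with a count; Slc2a1 forms a compact band in every set, whereas most cells hold no count of Hk1, Pgk1 or Ldhb.

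Slc2a1 had no count in 13 of the 694 cells. Of these, 9 were in Young1, 2 in Young2 and 2 in AY_Y3. They were as deep as the rest, with a median of 595190 counts against 604227. Their endothelial marker genes summed to a median of 18412 CPM against 23731 CPM. Cldn5 was counted in 9 of the 13, at a median of 977 CPM, against 679 of the other 681 cells, at 3353 CPM. Pecam1 went the other way in level, with a count in 12 of the 13 (median 1313 CPM) against 603 of the 681 (661 CPM). Ldha was counted in 84.6% of the 13 cells and in 85.9% of the others, and Aldoa in 61.5% against 80.6%.

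Slc2a1 was nearly the whole of the sugar transporter signal. Summed per kilobase of transcript over the 10 genes of the SLC2 family in the table, 98.8%, 99.1% and 99.6% of the signal in Young1, Young2 and AY_Y3 was Slc2a1. Slc2a3, the neuronal glucose transporter GLUT3, was counted in 0.288% of the cells. Slc50a1, a sugar efflux transporter of another family, had a level of 218 ± 52.7 CPM (SD, n = 3 sets) and a count in 48.8% to 50.9% of the cells of a set.

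The enzyme at the head of the pathway, Hk1, was low. Hk1, which phosphorylates glucose on entry, was counted in 21%, 21.2% and 17.6% of the cells of Young1, Young2 and AY_Y3, with summed levels of 41.9, 47.8 and 33.9 CPM. Hk2, the inducible hexokinase of muscle and fat, had no count in 694 cells, which allows a share of cells with a count of up to 0.432% and sets no limit on cells that express it below detection. Gpi1, which converts glucose 6-phosphate to fructose 6-phosphate, was counted in 43.5%, 52.1% and 56.6% of cells and had summed levels of 286, 369 and 367 CPM. For Hk1 and Gpi1 the sets lay close together, and Young1 was the lowest set for Gpi1 in both measures.

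Aldoa, which splits fructose 1,6-bisphosphate, was counted in 79.4%, 77.5% and 83.6% of cells in Young1, Young2 and AY_Y3. Its summed levels were 885, 786 and 928 CPM, within 1.18-fold of each other. The signal of the aldolases, per kilobase, was almost all Aldoa (99.6%, 96.9% and 99.8% of Aldoa plus Aldoc). Pgk1, the first enzyme of the pathway that yields ATP, was much lower, with a count in 28.5%, 25.8% and 26.6% of cells and 105, 79.3 and 64.7 CPM. Pkm, which makes pyruvate and the final ATP of the route, was counted in 73.8%, 77.5% and 84.0% of cells at 776, 892 and 765 CPM. For Pgk1 the order of the sets was Young1, Young2, AY_Y3 from high to low, and for Pkm the highest set was 1.17-fold above the lowest.

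Ldha, the subunit that prevails in muscle, was second to Slc2a1 among the members. A count was found in 86.9%, 83.5% and 87.3% of cells, and the summed level was 1810, 1354 and 1301 CPM in Young1, Young2 and AY_Y3. Young1 was thus the highest set for Ldha and the lowest for Slc2a1. Ldhb, the subunit that prevails in heart, was counted in 8.41%, 10.6% and 5.74% of cells at 50.6, 40.5 and 9.78 CPM, a 5.17-fold range over the sets. In Young1 the highest single cell held 4472 CPM of Ldhb, so few cells carried much of the sum. Per kilobase, Ldha made up 96.7%, 96.5% and 99.1% of the lactate dehydrogenase signal of Ldha and Ldhb. Over all sets, 545 cells held Ldha without Ldhb, 51 held both, 6 held Ldhb alone and 92 held neither.

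Compared per kilobase of transcript, the members fell from Slc2a1 (2926 ± 456 CPM per kilobase, SD, n = 3 sets) through Ldha (937 ± 176), Aldoa (583 ± 49.3), Pkm (363 ± 31.4), Gpi1 (118 ± 16.3), Pgk1 (45.5 ± 11.2) and Ldhb (25.8 ± 16.3) to Hk1 (11 ± 1.87). The order held in every set down to Pgk1. Ldhb and Hk1 could not be ordered, since Hk1 was above Ldhb in AY_Y3 (9.04 against 7.50 CPM per kilobase) and below it in Young1 and Young2. Pgk1 lay above Ldhb in each set, with spreads that overlapped over sets. The steps between the members that were not chosen here, each given by 1 gene, ran from 282 ± 22.8 CPM per kilobase for Gapdh, 237 ± 6.52 for Eno1 and 195 ± 15.7 for Tpi1 to 50.2 ± 13.5 for Pfkl and 27.1 ± 4.0 for Pgam1.

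**Figure D2:**
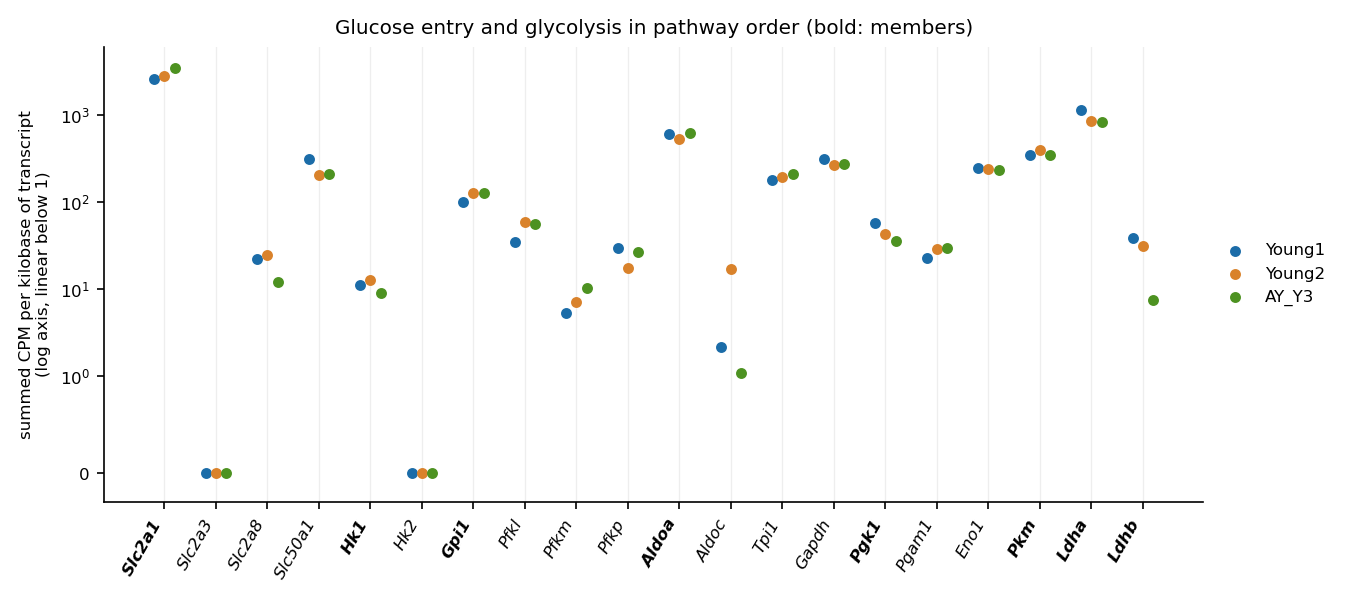
Summed CPM per kilobase of transcript (log axis, linear below 1) in each set for glucose carriers and glycolytic genes in the order of the pathway, with members in bold. Slc2a1 lies near 2900 and Hk1 near 11, and the points of the sets lie close together for most genes but not for Ldhb or Aldoc.

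Of all 694 cells, 10 held a count of all 8 members and none held none. The median number of members per cell was 4 in Young1, 4 in Young2 and 5 in AY_Y3. After thinning every cell to 50000 counts the medians were the same.

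The promoter windows of 3 members are shown because Slc2a1, Ldha and Ldhb span the range of levels, from 9540 to 33.6 summed CPM, and because Ldha and Ldhb encode alternative subunits of 1 enzyme. They run from 250 bases before to 50 after the annotated start, from RefSeq on GRCm38.p6, where Slc2a1 is at chr4:119108495-119108794 on the plus strand, Ldha (the first of 2 listed starts) at chr7:46845554-46845853 on the plus strand and Ldhb at chr6:142507908-142508207 on the minus strand. Capitals mark ACGTG on either strand (CACGT on the printed strand), 1 form of the core letters of the hypoxia response element. Other forms of the core, such as GCGTG, were neither searched nor marked. CACGTG, the E-box of MYC and related factors, holds ACGTG on both strands and is marked whole.
Slc2a1: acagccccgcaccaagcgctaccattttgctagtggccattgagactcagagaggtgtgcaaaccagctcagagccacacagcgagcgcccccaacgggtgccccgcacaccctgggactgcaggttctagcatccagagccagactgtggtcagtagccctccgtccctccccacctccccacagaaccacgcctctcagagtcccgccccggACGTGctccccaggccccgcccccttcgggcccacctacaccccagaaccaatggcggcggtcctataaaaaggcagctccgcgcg
Ldha: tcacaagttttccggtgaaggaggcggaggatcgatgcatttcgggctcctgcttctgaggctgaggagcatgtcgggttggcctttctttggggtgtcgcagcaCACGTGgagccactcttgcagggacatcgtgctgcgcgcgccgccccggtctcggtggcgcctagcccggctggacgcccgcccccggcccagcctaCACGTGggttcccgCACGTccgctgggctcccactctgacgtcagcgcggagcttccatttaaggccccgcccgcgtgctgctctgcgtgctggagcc
Ldhb: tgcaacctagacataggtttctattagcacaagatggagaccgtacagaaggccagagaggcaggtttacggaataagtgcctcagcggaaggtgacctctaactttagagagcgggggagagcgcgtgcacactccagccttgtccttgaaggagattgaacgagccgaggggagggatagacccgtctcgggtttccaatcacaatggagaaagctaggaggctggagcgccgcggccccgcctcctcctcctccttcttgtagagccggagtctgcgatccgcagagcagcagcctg
ACGTG was found 1 time in the Slc2a1 window, 5 times in that of Ldha, where 4 of the matches belong to 2 CACGTG, and 0 times in that of Ldhb. The only listed window of Pgk1 held 2 matches and that of Gpi1 0. Where a gene had several listed starts the windows differed: Hk1 held 0 matches in the first and 2 in the second, Pkm likewise 0 and 2, Aldoa 0, 1 and 1 in its 3 windows, and the second window of Ldha held 0. Of 32851 RefSeq windows of this length, 19.6% held ACGTG and 7.15% held CACGTG. Both words hold CG, and those windows had a median of 7 CG. The shown windows held 18 (Slc2a1), 30 (Ldha) and 17 (Ldhb), so these shares are not matched in CG. A match describes the letters only, and no binding was measured here.

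To ask how even the members were along the vessel, cells were placed by markers of the segments: Bmx and Gkn3 (arterial), Cxcl12 and Rgcc (capillary), Nr2f2 and Il1r1 (venous). Each cell was scored by its mean z value for the marker pair within its set, and joined the group of its highest score if that was above 0 and led the next by at least 0.25. The groups are ranges of a score, not cell types, and 200 of the 694 cells lay within 0.25 of the cut. The Bmx/Gkn3 cells numbered 125 (25 in Young1, 53 in Young2 and 47 in AY_Y3), the Cxcl12/Rgcc cells 269 (88, 74 and 107) and the Nr2f2/Il1r1 cells 137 (41, 47 and 49), and 163 cells had no group. Capillary markers were common outside their group: Cxcl12 was counted in 76.0% to 86.8% of the Bmx/Gkn3 cells of a set and in 68.3% to 83.7% of the Nr2f2/Il1r1 cells.

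The groups also differed in other ways that bear on each result below. Median genes per cell after thinning to 50000 counts were 1631 to 2022 in the Bmx/Gkn3 cells of the sets, 1446.5 to 1701 in the Cxcl12/Rgcc cells and 2189 to 2376 in the Nr2f2/Il1r1 cells. Summed levels of 10 pericyte markers were 54.8 to 365 CPM in the Bmx/Gkn3 cells (4 to 9 of the 10 at 0), 309 to 483 CPM in the Cxcl12/Rgcc cells (2 to 3 at 0) and 517 to 874 CPM in the Nr2f2/Il1r1 cells (1 to 3 at 0). Summed levels of 8 smooth muscle markers were 168 to 822, 37.8 to 78.8 and 24.3 to 97.4 CPM in the same order (1 to 5 of the 8 at 0 in a set). Kcnj8, Abcc9 and Atp13a5, which mark pericytes, were at 0 in all sets of the Bmx/Gkn3 cells, and the contractile genes Acta2 and Tagln in all sets of the Nr2f2/Il1r1 cells. Other genes of the same lists were counted in every set. Rgs5 was at 54.8 to 267 CPM in the Bmx/Gkn3 cells. Mylk was at 8.22 to 23.9 CPM and Myl9 at 14.8 to 71.5 CPM in the Nr2f2/Il1r1 cells. Summed levels of 10 neuron markers were 391 to 434 CPM in the Bmx/Gkn3 cells, 38.4 to 90.0 CPM in the Cxcl12/Rgcc cells and 7.31 to 43.5 CPM in the Nr2f2/Il1r1 cells. Those of 10 oligodendrocyte markers were 1027 to 1654, 1205 to 1485 and 1556 to 2024 CPM in the same order. The part of genes per cell and of the neuron and oligodendrocyte markers in the results below was not tested. Without the 5% of cells of each set highest in mural markers, 0 of 8 members passed in any comparison, as with them.

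Slc2a1 was high in all 3 groups, and no difference between them was detected. In the Bmx/Gkn3 cells it was at 9505, 9027 and 10786 CPM in Young1, Young2 and AY_Y3, in the Cxcl12/Rgcc cells at 8279, 9090 and 12112 CPM, and in the Nr2f2/Il1r1 cells at 8325, 9971 and 12351 CPM. The ranges of the groups overlapped, although Nr2f2/Il1r1 cells lay above Cxcl12/Rgcc cells in each of the 3 sets. Bmx/Gkn3 cells differed from Cxcl12/Rgcc cells by a log2 fold change of -0.02 ± 0.10 (SE), with a 95% interval that corresponds to ratios from 0.835 to 1.17 (adjusted p = 0.998, edgeR's quasi-likelihood test). The difference of Nr2f2/Il1r1 from Cxcl12/Rgcc cells was 0.01 ± 0.10 (ratios 0.852 to 1.19, adjusted p = 1), and that of Bmx/Gkn3 from Nr2f2/Il1r1 cells -0.03 ± 0.10 (ratios 0.829 to 1.16, adjusted p = 0.977). Few genes were measured as closely: 0.137% of the 12385 tested genes had a smaller standard error in the comparison of Bmx/Gkn3 with Cxcl12/Rgcc cells. Slc2a1 passed in none of the alternative fits, but its log2 values there ran more widely. In the same order of comparisons they ran from -0.21 to 0.088, from -0.080 to 0.45 and from -0.42 to 0.077. The values 0.45 and -0.42 lie outside the intervals of the main fit given above as ratios.

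None of the 8 members passed the test in any comparison of the groups. Between Bmx/Gkn3 and Cxcl12/Rgcc cells 0 of 8 members passed, beside 0.25% of all tested genes (31 of 12385). Between Nr2f2/Il1r1 and Cxcl12/Rgcc cells 0 of 8 passed, beside 0% of all genes, and between Bmx/Gkn3 and Nr2f2/Il1r1 cells 0 of 8, beside 0.63% (78 genes). In the test of any difference among the 3 groups 0 of 8 passed, beside 0.355% (44 genes). With so few calls over all genes, a count of 0 among 8 is close to the background. Calls were more frequent among abundant genes such as Slc2a1. Of the 94 genes with a mean log2 CPM of at least 10, 12, 0, 20 and 16 passed in these tests, in the order given. At an unadjusted p under 0.05 the members also numbered 0 in each of the 4 tests, against 1059, 611, 1346 and 1107 of all genes. DESeq2 passed 0 members in each test, beside 6.82%, 3.08%, 9.7% and 5.54% of the genes to which it gave an adjusted p, in the same order. Limma on the mean log2(CPM + 1) of cells passed 1 member, Gpi1, in the first and the last test and 0 in the others, beside 5.42%, 4.51%, 8.95% and 10.9% of all genes. With any of the sets left out, 0 genes passed in each of the 4 tests by edgeR, on the 2 sets that remained.

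Ldha was lower in the Nr2f2/Il1r1 than in the Cxcl12/Rgcc cells of every set, without passing the test. Its levels were 1604, 1267 and 959 CPM there and 1972, 1447 and 1228 CPM in the Cxcl12/Rgcc cells. The log2 fold change was -0.32 ± 0.16 (SE), with a 95% interval from -0.71 to 0.06 (p = 0.0872, adjusted p = 1, edgeR). Bmx/Gkn3 cells held 1582, 1217 and 1516 CPM, a difference of -0.10 (95% interval -0.49 to 0.28) from the Cxcl12/Rgcc cells, lower in 2 of 3 sets.

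Aldoa was higher in Bmx/Gkn3 cells than in each of the other groups in every set, again without passing. Its levels were 972, 849 and 1091 CPM in Bmx/Gkn3 cells, 865, 779 and 842 CPM in Cxcl12/Rgcc cells and 687, 817 and 904 CPM in Nr2f2/Il1r1 cells. The log2 fold change against Cxcl12/Rgcc cells was 0.19 (95% interval -0.14 to 0.53), and against Nr2f2/Il1r1 cells 0.29 (-0.04 to 0.62; p = 0.0779, adjusted p = 0.534, edgeR). The interval holds ratios up to 1.44 and 1.54, so a modest difference was not detectable with 3 sets rather than absent.

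Pkm differed little on average, by -0.14 (95% interval -0.71 to 0.43) between Bmx/Gkn3 and Cxcl12/Rgcc cells and by -0.14 (-0.70 to 0.43) between Nr2f2/Il1r1 and Cxcl12/Rgcc cells. The sets disagreed on it: in Bmx/Gkn3 cells it was at 1031 CPM in Young1 and 621 CPM in AY_Y3, and in Cxcl12/Rgcc cells at 1203 CPM in Young2 and 709 CPM in AY_Y3. Hk1, Pgk1 and Ldhb had wide intervals, from -1.84 to 2.45 on the log2 scale at the extremes over the comparisons. Hk1 was higher in Nr2f2/Il1r1 cells than in each of the other groups in every set (38.3, 57.2 and 51.7 CPM, against 29.1, 34.3 and 41.3 CPM in Cxcl12/Rgcc cells), with a log2 difference from Cxcl12/Rgcc cells of 0.42 ± 0.51 (SE). For these 3 genes the interval of every comparison held both no difference and a change of 2-fold.

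**Figure D3:**
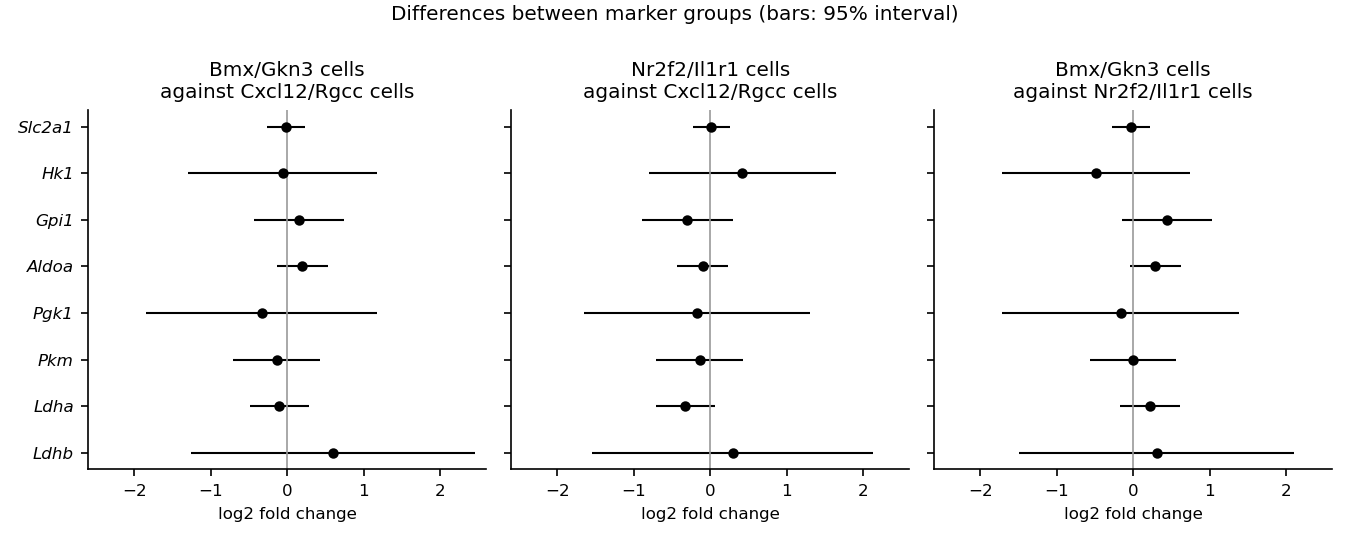
Log2 fold change of each member between marker groups in 3 comparisons that share their groups (edgeR, set as a block; bars are 95% intervals). Every interval holds 0; that of Slc2a1 is the narrowest and those of Hk1, Pgk1 and Ldhb are wide.

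Gpi1 differed by measure. Its summed level was 340, 349 and 419 CPM in Bmx/Gkn3 cells, 239, 446 and 314 CPM in Cxcl12/Rgcc cells and 203, 258 and 388 CPM in Nr2f2/Il1r1 cells, and these overlapped. The log2 fold changes were 0.15 (95% interval -0.44 to 0.74) for Bmx/Gkn3 and -0.30 (-0.89 to 0.29) for Nr2f2/Il1r1 cells, each against Cxcl12/Rgcc cells. The percentage of cells with a count of Gpi1 after thinning was 52.0, 69.8 and 57.4 in Bmx/Gkn3 cells, 53.7, 57.4 and 63.3 in Nr2f2/Il1r1 cells, and 33, 39.2 and 47.7 in Cxcl12/Rgcc cells. Every set of the first 2 groups lay above every set of the Cxcl12/Rgcc cells, and those 2 groups overlapped each other. On the mean of log2(CPM + 1) over cells, which weighs detection more than level, Bmx/Gkn3 exceeded Cxcl12/Rgcc cells by 1.70 (adjusted p = 0.0256, limma), and the test of any difference passed at an adjusted p of 0.0332. In the same fits 5.42% and 10.9% of all tested genes passed, so 1 of 8 members is near the background.

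The higher share in Nr2f2/Il1r1 than in Cxcl12/Rgcc cells was found for most members and for many other genes. In Nr2f2/Il1r1 cells 6 of the 8 members (Hk1, Gpi1, Aldoa, Pkm, Ldha and Ldhb) had, after thinning, a share of cells above that of Cxcl12/Rgcc cells with no overlap of the sets, and 0 had a lower share. Over all tested genes 29.7% were higher and 1.44% lower in that way, and the median gene was 3.38 percentage points higher. Between Bmx/Gkn3 and Cxcl12/Rgcc cells 1 of 8 members was higher (Gpi1) and 0 lower, beside 16.4% and 3.93% of all genes. Between Bmx/Gkn3 and Nr2f2/Il1r1 cells 0 of 8 were higher and 1 was lower (Pkm), beside 4.71% and 14.4%. Genes per cell were also highest in the Nr2f2/Il1r1 cells, as given above, and their part in these shares was not tested. For Pkm the thinned share was 87.8%, 85.1% and 98.0% in Nr2f2/Il1r1 cells against 71.6%, 77.0% and 78.5% in Cxcl12/Rgcc cells, while its summed level overlapped.

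**Figure D4:**
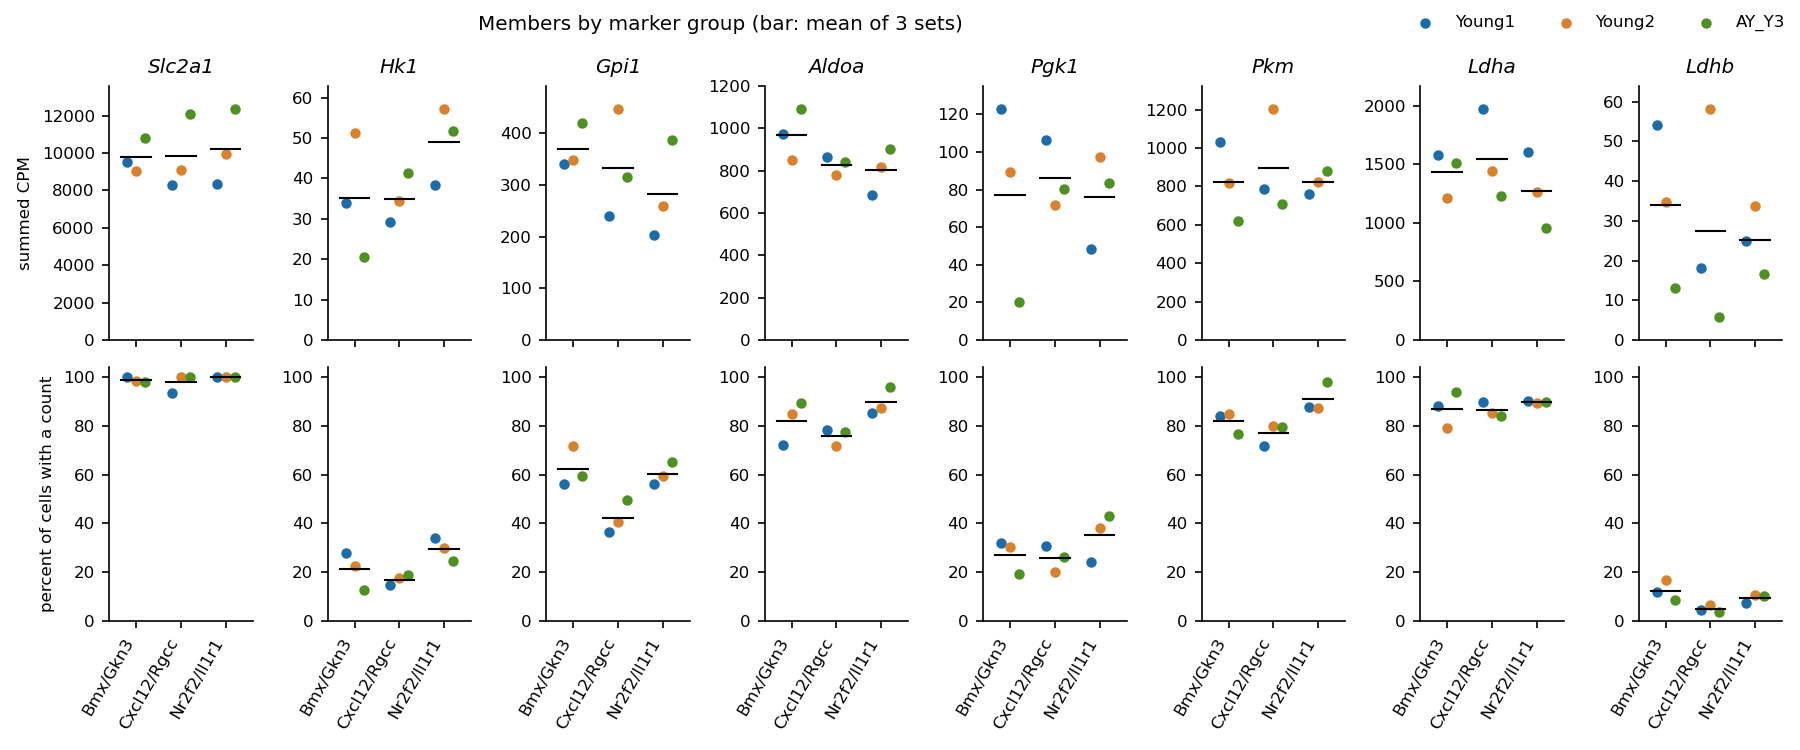
Summed CPM (upper row) and percentage of cells with a count (lower row) of each member in the 3 marker groups; each point is a set and the bar is the mean of the 3 sets. Summed levels overlap between groups for every member, whereas more of the Nr2f2/Il1r1 cells than of the Cxcl12/Rgcc cells hold a count of Gpi1, Aldoa and Pkm in each set.

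Evenness was also read without groups. Cells were ordered from the venous to the arterial end by the difference of those scores and divided into 5 bins per set. For Slc2a1 the highest bin exceeded the lowest by 1.18-fold in Young1, 1.28-fold in Young2 and 1.26-fold in AY_Y3. For Aldoa the same ratio was 1.56, 1.48 and 1.21, and for Ldha 1.38, 1.59 and 1.28. It was 1.96, 2.17 and 1.65 for Gpi1 and 1.76, 1.19 and 1.38 for Pkm. The rarer members were less even, with 2.46, 1.81 and 3.22 for Pgk1, 1.5, 2.51 and 11.5 for Hk1, and 19.4, 2.81 and 127 for Ldhb, whose lowest bin in AY_Y3 held 0.182 CPM. The ends of the axis were at 8833 (venous) and 8251 (arterial) CPM of Slc2a1 in Young1, 9603 and 9351 CPM in Young2, and 11596 and 10633 CPM in AY_Y3. The order inside the middle bins is arbitrary, because 140 of 214, 120 of 236 and 128 of 244 cells held no count of any of the 4 arterial and venous markers. In Young1 such cells were more than the middle bins, of 43 cells each, can hold. Some of them therefore lie in the end bins of that set, where their placement is arbitrary as well.

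Across cells, rank correlations of the members with the 6 segment markers were weak. The 48 values, each a mean of Spearman's rho over the sets (214, 236 and 244 cells), lay between -0.10 (Gpi1 with Rgcc) and 0.18 (Hk1 with Nr2f2). Correlations with genes per cell reached 0.24 for Hk1, 0.22 for Pgk1, 0.19 for Gpi1 and 0.19 for Ldhb. Within a cell, a member and a marker are divided by the same total counts, and the cells of a set are not replicates. These values describe sparse counts, in which a weak correlation is no finding.

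Correlations among the members were weak as well. Over the 28 pairs of members the median rho, averaged over the sets, was 0.041, with a range from -0.08 (Pkm with Ldhb) to 0.17 (Aldoa with Ldha). Of the 28 pairs, 10 were above 0 in all 3 sets and 2 below 0 in all 3. Aldoa with Ldha gave 0.23, 0.14 and 0.13 in Young1, Young2 and AY_Y3. Slc2a1 with Ldha gave 0.00 on average and Slc2a1 with Hk1 -0.01.

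**Figure D5:**
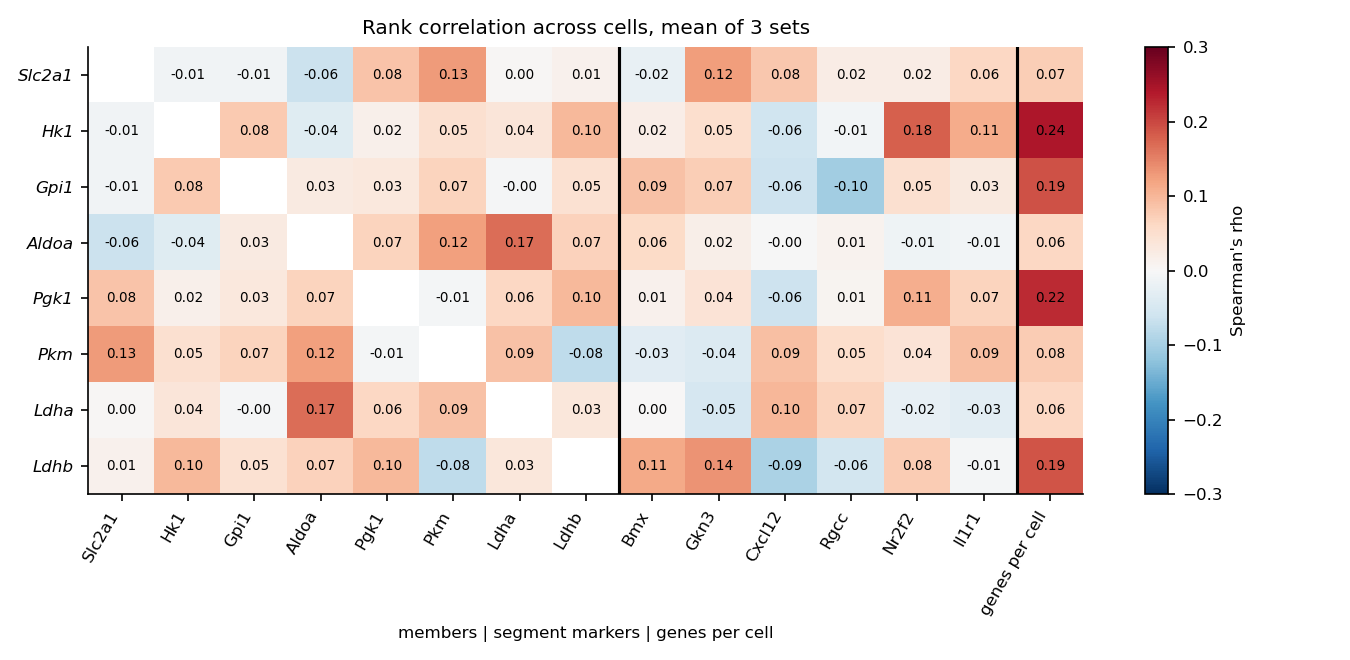
Spearman's rho across endothelial cells, averaged over the 3 sets, of each member with the other members, the segment markers and the number of genes per cell. No value exceeds 0.24 and the largest among members is 0.17.

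The genes that most resembled a member over cells were chosen as the 3 with the highest mean rho among the 876 genes. For Slc2a1 they were Slco1c1, a thyroid hormone and organic anion transporter (0.32, 0.32 and 0.36 in Young1, Young2 and AY_Y3), Mal, a membrane proteolipid (0.29, 0.29 and 0.36), and Slc22a8, an organic anion transporter (0.31, 0.30 and 0.29). The median over the compared genes was 0.01. For Aldoa the first gene was Ldha and for Ldha it was Aldoa, at 0.17. The first genes for Hk1 (Capns1), Gpi1 (Kmt2d), Pgk1 (Pitpna) and Ldhb (S100a11) stood at 0.16 to 0.21.

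Pkm had a partner that needs care. Its closest gene was Gm6560, annotated as a processed pseudogene, at 0.83, 0.84 and 0.75 in Young1, Young2 and AY_Y3. Of the 31-letter words of its transcripts, 58.4% also occur in those of Pkm. Its counts were 0.513% of those of Pkm, and of the cells with a count of either gene 413 held both, 133 held Pkm alone and 1 held Gm6560 alone. Gpi1 had a like partner in Gm1840, a processed pseudogene sharing 59.1% of its words, at 0.642% of the counts of Gpi1 and a rho of 0.88, 0.85 and 0.75. The copies of Ldha and Ldhb held 0.0546% and 0.129% of their counts. No gene of the table shared at least 20% of its words with Slc2a1, Hk1, Aldoa or Pgk1. Exons of Slc2a1, Gpi1 and Aldoa overlap opposite-strand exons of Gm12868, Gm26762 and Fam57b, and since the sources used here do not state whether counting used strand, reads of those stretches cannot be told apart.

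In the 51 wells left out, the members were also counted. Slc2a1 had a count in all 27 pericyte-like wells, at a median of 4826 CPM, and in all 24 wells with glial markers, at 7218 CPM, against 9177 CPM in the 694 endothelial cells. Cldn5 was counted in all of these wells as well, at medians of 2232 and 2765 CPM against 3328 CPM. Ldhb had a count in 25.9% of the pericyte-like wells and 25% of the glial wells, against 8.21% of the endothelial cells, and Aldoc, the aldolase of astrocytes, in 70.8% of the glial wells against 3.31%. Aldoc is on the astrocyte marker list by which those wells were set apart, so its contrast is not independent of that choice.

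Other genes of the route were taken from lists of the pathway, and the calls lay among genes of lactate handling. Of 14 further glycolytic genes that were tested, 0 passed in any comparison (0% to 0.63% of all tested genes did). Their members with the largest fitted differences were rare transcripts (Ldhd, Pfkfb2, Pfkfb3 and Aldoc, each at most 21.1 CPM in the groups compared). Ldhd passed in 1 of 11 alternative fits of Bmx/Gkn3 cells against each other group. Aldoc passed in 1 of 13 alternative fits of Nr2f2/Il1r1 cells against each other group. Eno1, the enolase, was named after its values were seen, at 341 ± 77.9 CPM in Bmx/Gkn3 cells and 504 ± 42.8 CPM in Cxcl12/Rgcc cells (SD, n = 3 sets), and its adjusted p was 0.447 (edgeR). Among 5 tested sugar transporters 0 passed, again beside 0% to 0.63% of all genes. Slc2a12 was at 10.7 ± 13.1 CPM in Bmx/Gkn3 and 0.334 ± 0.453 CPM in Cxcl12/Rgcc cells, and Slc2a10 at 1.72 CPM in the former. Slc2a12 passed in 1 of 12 alternative fits of Bmx/Gkn3 against Cxcl12/Rgcc cells. Among the alternatives, DESeq2 called 3.08% to 9.7% of all genes in the comparisons of 2 groups, and limma 4.51% to 8.95%. Such single passes are not read as differences.

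Among 17 tested genes of pyruvate and lactate handling, 2 fell in Bmx/Gkn3 against Cxcl12/Rgcc cells, 0 rose and 15 did not pass, beside 0.25% of all tested genes called. Slc16a1, the monocarboxylate transporter of the blood-brain barrier, was at 50.9 ± 33.1 CPM in Bmx/Gkn3 cells, 407 ± 127 CPM in Cxcl12/Rgcc cells and 573 ± 126 CPM in Nr2f2/Il1r1 cells (SD, n = 3 sets). Its log2 fold change was -3.17 ± 0.33 (SE, adjusted p = 0.0326) against the capillary group and -3.65 ± 0.34 (adjusted p = 0.0134) against the venous group, by edgeR. Bsg (basigin), the chaperone that carries monocarboxylate transporters to the membrane, was at 12787 ± 844 CPM in Bmx/Gkn3 cells and 20104 ± 166 CPM in Cxcl12/Rgcc cells, a log2 fold change of -0.68 ± 0.06 (adjusted p = 0.0270, edgeR). Neither passed when any of the sets was left out, with adjusted p from 0.0925 to 0.613 over these edgeR fits. Of the 94 genes with a mean log2 CPM of at least 10, a class that holds Bsg, 12 passed between Bmx/Gkn3 and Cxcl12/Rgcc cells. Against Nr2f2/Il1r1 cells 1 of the 17 fell (Slc16a1) and 16 did not pass, beside 0.63% of all genes called, and between Nr2f2/Il1r1 and Cxcl12/Rgcc cells 0 of 17 passed, with Pdk1 at 9.06 CPM and Pdk4 at 0.183 CPM in the former. Pdk1 passed in 1 of 13 alternative fits of Nr2f2/Il1r1 against Cxcl12/Rgcc cells.

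No call was made by the main edgeR fits in the neighbouring routes, where few calls were made over all genes (0% to 0.63% of them). Of 7 tested genes of the pentose phosphate pathway (Pgd, G6pdx and Rpia among them), of 20 genes of the TCA cycle and of 17 genes of the HIF pathway, 0 passed in each comparison. Idh2, the mitochondrial isocitrate dehydrogenase, was at 124 ± 67.3 CPM in Bmx/Gkn3, 44.1 ± 29.8 CPM in Cxcl12/Rgcc and 31.3 ± 21.7 CPM in Nr2f2/Il1r1 cells. Hif1a, the oxygen-sensitive subunit of the factor that drives many glycolytic genes in low oxygen, was at 88.8 ± 71.4, 99.6 ± 22.8 and 248 ± 73.6 CPM in the same order, with an adjusted p of 0.916 (edgeR) between Nr2f2/Il1r1 and Cxcl12/Rgcc cells. Ankrd37, a target of that factor, was at 25.7 ± 22.1, 69.6 ± 19.1 and 113 ± 22.3 CPM, with an adjusted p of 0.309 (edgeR) between Bmx/Gkn3 and Nr2f2/Il1r1 cells. In that comparison 7 of the 17 HIF genes had an unadjusted p under 0.05 (3 lower and 4 higher in Bmx/Gkn3 cells), beside 10.9% of all genes. The lowest adjusted p was 0.0690 (edgeR), for Epas1, the HIF-2 alpha subunit, named after its values were seen, at 2331 ± 118 CPM in Bmx/Gkn3 and 1289 ± 224 CPM in Nr2f2/Il1r1 cells. Of 13 alternative fits, Ankrd37 passed in 2 and Adm in 1 between Bmx/Gkn3 and Nr2f2/Il1r1 cells. Hif1a and Ogdh each passed in 1 of 13 between Nr2f2/Il1r1 and Cxcl12/Rgcc cells. Idh2 passed in 1 of 13 for Bmx/Gkn3 cells against each other group. Some alternatives also called more of all genes. The median log2 fold change of the 8 members between Bmx/Gkn3 and Cxcl12/Rgcc cells was -0.04, beside -0.11 over all tested genes. In size, without sign, the median over the members was 0.14, beside 0.42 over the 5566 genes at least as abundant as Ldhb. It was 0.23 beside 0.33 between Nr2f2/Il1r1 and Cxcl12/Rgcc cells, and 0.26 beside 0.47 between Bmx/Gkn3 and Nr2f2/Il1r1 cells. The cut was set by Ldhb alone, so the genes were not matched in level to the other members. These medians thus do not compare genes of like abundance.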

How the data were processed

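Single endothelial cells were measured by RNA sequencing, 1 cell per sample. The deposited values are whole-number read counts per gene symbol and cell, with no normalization; Bowtie 0.12.2 and the builds mm8 and mm10 are named in the submitters' processing notes with no role, and the sources used here give no counting tool, annotation or strand setting. All 745 cells passed the minimums of 500 genes and 50000 counts, and no column was left unmapped. Cells were clustered on 2000 variable genes (10 principal components, 15 neighbours, Leiden resolution 1, leidenalg and scikit-learn), and clusters with markers of other cell types were left out; no doublet caller was run. CPM is a gene's counts per 1000000 counts of the cell or of the summed cells; lengths are median GENCODE M21 transcript lengths.

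Counts were summed per set and marker group (9 sums) and tested with edgeR 4.0.16 (quasi-likelihood, TMM, low-count filter, set as a block), with Benjamini-Hochberg adjustment over all tested genes and a threshold of 0.05; the 6 rule markers were left out. The set is a block because the titles place cells of all 3 groups in each set. The labels do not say that a set is a mouse, so p-values measure only the spread between these sets, which may be technical. The script was tested on simulated data. Alternatives used DESeq2 1.42.0 and limma 3.58.1. All 8 members were named in each comparison, and from each list the genes that passed or, where none did, the 2 with the largest fitted difference. The members and gene lists were chosen with earlier results of these data known. Exon overlaps were read from GENCODE M21 and promoter windows from RefSeq, both on GRCm38. Protein sequences were not used here.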

Additional observations from a re-analysis of the deposited data

How the results depend on the processing

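The set was the only replicate, and 9 sums were compared, so the precision of each test rests on 3 sets. Over 312 refitted values of the members (8 genes, 3 comparisons, 13 alternatives), 265 kept their direction and their side of the threshold, 46 changed sign without passing and 1 passed. Fits of 8 members gave 0 calls in all 4 tests under each alternative except limma on mean log2 values, which gave 1 (Gpi1) for Bmx/Gkn3 against Cxcl12/Rgcc cells and 1 (Gpi1) for any difference. Adding the counts of near-identical copies to the members, an alternative chosen after seeing the data, also left 0 members called, with 31, 0, 78 and 44 calls over all genes. All 48 alternative values for the share of cells with a count, by thinning or by asking for 5 counts, lay inside the binomial interval of the main value. Hk1, Pgk1 and Ldhb were counted in at most 28.5% of the cells of a set.

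Counts over all genes moved more, and the cause was not tested. In the order Bmx/Gkn3 against Cxcl12/Rgcc, Nr2f2/Il1r1 against Cxcl12/Rgcc, Bmx/Gkn3 against Nr2f2/Il1r1, and any difference, edgeR passed 31, 0, 78 and 44 genes. DESeq2 passed 845, 382, 1201 and 606, and limma on mean log2 values 671, 559, 1108 and 1356. Thinning to 50000 counts gave 153, 1, 246 and 230. Groups from clusters on segment markers gave 89, 171 and 131 where the count moved, keeping all cells gave 16 for the first, and leaving out the cells highest in mural markers gave 1 for the second. Without each set in turn the counts were 0 to 0 in every test. Without the replicate block they were 39, 0, 99 and 56.

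The changes of sign follow, where limma's values are differences of the mean log2(CPM + 1) over cells and the others are log2 fold changes of sums. None of these values passed, and their causes were not tested. For Slc2a1, the log2 fold change in Bmx/Gkn3 against Cxcl12/Rgcc cells became 0.038 with DESeq2, 0.036 with limma and 0.0074 without the cells highest in mural markers. It ran from -0.14 to 0.088 with a set left out. In Nr2f2/Il1r1 cells it became -0.036 with no filter, -0.044 on clusters, -0.022 at a margin of 0.5 and -0.080 with all cells kept, and ran from -0.037 to 0.029 with a set left out. Between Bmx/Gkn3 and Nr2f2/Il1r1 cells it became 0.021 with DESeq2 and 0.045 with all cells kept, and ran from -0.17 to 0.077 with a set left out.

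For the other members in Bmx/Gkn3 against Cxcl12/Rgcc cells, limma gave 0.23 for Hk1, 0.13 for Pgk1, 0.16 for Pkm and 0.037 for Ldha, and thinning gave 0.083 for Hk1. With a set left out the range was -0.36 to 0.38 for Hk1, -0.048 to 0.46 for Gpi1, -0.78 to 0.25 for Pgk1 and -0.44 to 0.12 for Pkm. In Nr2f2/Il1r1 against Cxcl12/Rgcc cells limma gave 1.28 for Gpi1, 1.1 for Aldoa, 0.62 for Pgk1, 1.15 for Pkm and 0.36 for Ldha, thinning gave 0.063 for Pgk1 and the fit without the block gave -0.15 for Ldhb. With a set left out the range was -0.19 to 0.033 for Aldoa, -0.42 to 0.15 for Pgk1, -0.38 to 0.097 for Pkm and -0.35 to 1.0 for Ldhb. In Bmx/Gkn3 against Nr2f2/Il1r1 cells limma gave -0.26 for Aldoa and -0.33 for Ldha, the fit without the block 0.038 for Pgk1 and 0.021 for Pkm, and thinning -0.29 for Ldhb. Pkm also became 0.048 with DESeq2, 0.019 with no filter and 0.11 without the cells highest in mural markers. With a set left out the range was -0.93 to 0.59 for Pgk1, -0.27 to 0.29 for Pkm and -0.20 to 0.75 for Ldhb.

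The median rho over the 28 pairs of members, taken within each set and then averaged over the sets, was 0.036. It became 0.064 over cells with a count of both genes, for the pairs with at least 10 such cells in a set, and 0.013 after the trend on genes per cell was removed. Averaging each pair over the sets before taking the median gave the 0.041 above.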
